A study of Mus musculus with 6 samples.

Results

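The ABC transporter genes are the genes whose single symbol in the array's annotation is Abc, then a letter from a to g, then a digit. By that naming rule 45 of the 18194 genes measured on the arrays were members, each represented by the probe set with the highest mean over the 6 arrays. RNA was measured on Affymetrix 3' arrays in 3 groups of 2 arrays, all from bone marrow of adult mice. WT LSK FLT3- were wild-type C57bl/6 cells sorted as LIN-SCA1+KIT+FLT3-, in which the blood-forming stem cells are found. WT LMPP were wild-type C57bl/6 cells sorted as LIN-SCA1+KIT+FLT3hi, known as lymphoid-primed multipotent progenitors, and E2A-KO LMPP were cells of the same gate from E2A-KO mice on the C57bl/6 background. E2A is the name of the E protein transcription factors made from Tcf3, and the labels do not describe the targeted allele. Groups follow the sample titles, since the free-text description names WT LMPP for all 6 arrays. Nothing in the labels says that both arrays of a group hold different animals or sorts. The p-values therefore reflect no more than the spread within these array pairs, and that spread may be technical.

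ABC proteins couple the binding and hydrolysis of ATP to the movement of a substrate across a membrane. Subfamily A moves lipids, subfamilies B and C include the multidrug pumps as well as transporters of mitochondria and lysosomes, and subfamily D sits in peroxisomes and lysosomes. Subfamilies E and F have the ATP-binding domains but no membrane domains and act on ribosomes and translation, and subfamily G exports sterols and drugs. In bone marrow the family is best known for Abcg2, whose protein pumps the dye Hoechst out of stem cells and so produces the side population seen by flow cytometry, and for Abca1 and Abcg1, which export cholesterol.

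The arrays had 14 members in subfamily A, 8 in B, 10 in C, 3 in D, 1 in E, 3 in F and 6 in G. Of the 45 members, 20 had a mean level above that of the median gene (4.88, log2) and 25 lay at or below it. Levels that low are in the compressed range of such arrays, and no detection calls were used, so a low value does not show that a gene was expressed. Some members are neighbours in the GRCm38.p6 gene order: Abca8b, Abca8a, Abca9, Abca6 and Abca5 follow each other on chromosome 11, Abcb1a, Abcb1b and Abcb4 on chromosome 5, and Abcg5 and Abcg8 on chromosome 17.

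The 250 bases before the transcription start are shown for the 5 members with the largest falls between the wild-type fractions. These members were picked by their change in these data. The share of members that fell is set beside that of all genes below. The sequences are from RefSeq, build GRCm38.p6, written 5′ to 3′ on the strand of the gene. Capitals mark CAGGTG and CAGCTG, which are letters that E proteins are known to bind, and GGGCGG, the GC box, each searched on both strands, so that CACCTG and CCGCCC are the same motifs read from the other strand. Where a gene had several start sites in the table (3 for Abcg2 and 2 for Abcc4), the window with the most CG pairs is shown.
Abcg2, chr6:58640296-58640545, plus strand: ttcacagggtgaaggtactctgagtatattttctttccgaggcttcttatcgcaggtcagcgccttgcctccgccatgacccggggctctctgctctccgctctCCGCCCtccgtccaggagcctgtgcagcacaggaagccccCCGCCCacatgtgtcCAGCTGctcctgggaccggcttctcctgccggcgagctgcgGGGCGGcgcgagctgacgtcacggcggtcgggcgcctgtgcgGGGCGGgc
Abca5, chr11:110337717-110337966, minus strand: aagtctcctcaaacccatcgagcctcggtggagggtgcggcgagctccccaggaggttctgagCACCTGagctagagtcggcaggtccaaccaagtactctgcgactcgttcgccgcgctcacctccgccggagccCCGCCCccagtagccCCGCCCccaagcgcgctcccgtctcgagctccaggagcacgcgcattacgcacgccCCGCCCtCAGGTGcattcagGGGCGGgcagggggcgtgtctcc
Abcg3, chr5:104982718-104982967, minus strand: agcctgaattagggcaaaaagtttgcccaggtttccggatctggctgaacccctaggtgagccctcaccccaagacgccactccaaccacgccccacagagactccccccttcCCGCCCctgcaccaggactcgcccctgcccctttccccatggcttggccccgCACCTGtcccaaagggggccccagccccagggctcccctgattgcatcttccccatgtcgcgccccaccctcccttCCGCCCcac
Abcb6, chr1:75180393-75180642, minus strand: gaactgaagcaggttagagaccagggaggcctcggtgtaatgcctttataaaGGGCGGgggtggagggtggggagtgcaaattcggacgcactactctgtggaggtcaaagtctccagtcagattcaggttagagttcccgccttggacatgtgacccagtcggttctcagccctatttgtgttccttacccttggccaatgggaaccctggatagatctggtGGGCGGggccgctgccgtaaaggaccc
Abcc4, chr14:118706220-118706469, minus strand: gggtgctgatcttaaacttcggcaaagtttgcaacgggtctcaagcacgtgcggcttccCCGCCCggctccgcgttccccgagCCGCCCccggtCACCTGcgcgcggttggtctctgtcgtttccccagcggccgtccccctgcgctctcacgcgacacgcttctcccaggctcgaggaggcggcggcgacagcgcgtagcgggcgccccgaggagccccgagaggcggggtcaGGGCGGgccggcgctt

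These 5 stretches held GGGCGG 4 times in Abcg2, 4 times in Abca5, 2 times in Abcg3, 2 times in Abcb6 and 3 times in Abcc4. CAGGTG stood 2 times before Abca5 and 1 time each before Abcg3 and Abcc4, and CAGCTG 1 time before Abcg2. Over windows of 300 bases, from 250 before to 50 after the start, 35 of the 45 members were in the table, with 42 windows. CAGGTG was in 38.1% of these windows against 20.2% of all 32851 windows in the table, CAGCTG in 19% against 16.3%, and GGGCGG in 50% against 35.7%. The members' windows were also richer in G and C (median 58.8%, against 52.7% over all windows) and in CG pairs (16.5 against 7), so the motif shares were not compared at equal base composition. Among members, CAGGTG was in 50% of the 16 windows (11 genes) of those that fell between the wild-type fractions. It was in 30.8% of the 26 other windows (24 genes), which were also poorer in G and C (median 54.2% against 61.8%). Windows of the same gene are not independent, and those of Abcf2, which fell, overlap and each hold CAGGTG. Among the other members, a window of Abcg5 and a window of Abcg8 overlap and each hold CAGGTG, as does another window of Abcg8. The matches describe letters in these windows and do not show binding.

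Array-wide values that touch the family differed by cell fraction. The upper quartile of probe sets was at 6.13 and 6.15 (log2) for LSK FLT3- but at 5.78 to 5.82 for the 4 LMPP arrays, and the lower quartile at 3.04 for both LSK FLT3- arrays but at 3.19 to 3.22 for LMPP. Tcf3 did not pass in E2A-KO LMPP in any of its 3 probe sets (limma, adjusted p 0.425 to 0.869), which checks no label, because the position of these probe sets in relation to the deleted sequence is unknown here. Stem cell markers fell from WT LSK FLT3- to WT LMPP in 7 of 7 cases and lymphoid-primed markers rose in 5 of 5. The latter include Flt3 (1.99), whose protein defines the 2 gates, so its rise is not independent of the sort. Of 6 neutrophil markers 5 rose, from a list mean of 7.13 to 7.16 to one of 8.06 to 8.11, and of 6 macrophage markers 2 rose and 4 did not pass. Of 4 plasma and B cell markers 2 rose and 2 fell, and the falls were large: Igha, an antibody heavy chain, fell by 5.79 and Jchain, which joins antibody subunits, by 4.77, both from levels of 7.83 or more on the LSK FLT3- arrays. The part of such RNA in the ABC values was not tested. Stroma and endothelium markers were low in all groups, with a list mean of 3.36 to 3.65 (log2).

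From WT LSK FLT3- to WT LMPP, the step from the stem cell fraction to the lymphoid-primed fraction, 13 ABC genes fell, 1 rose and 31 did not pass (limma's moderated test on all 6 arrays, Benjamini-Hochberg adjustment over 18194 genes, adjusted p under 0.05). The largest falls were in Abcg2 and Abca5, and the gene that rose was Abcc8. Over all genes the same test called 23.7% lower and 10.4% higher, and the members' shares were 28.9% and 2.22%. Among genes above the median level 40.9% fell, and 8 of 20 such members (40%) did, a share near that of the other genes, while 7.17% rose, and 0 of the 20. Among genes at or below it 6.49% fell and 13.6% rose, against 5 and 1 of the 25 members. Groups whose arrays do not overlap were also common: 16 members were lower and 15 higher on both WT LMPP arrays than on both LSK FLT3- arrays, against 39.3% and 32.4% of all genes.

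**Figure D1:**
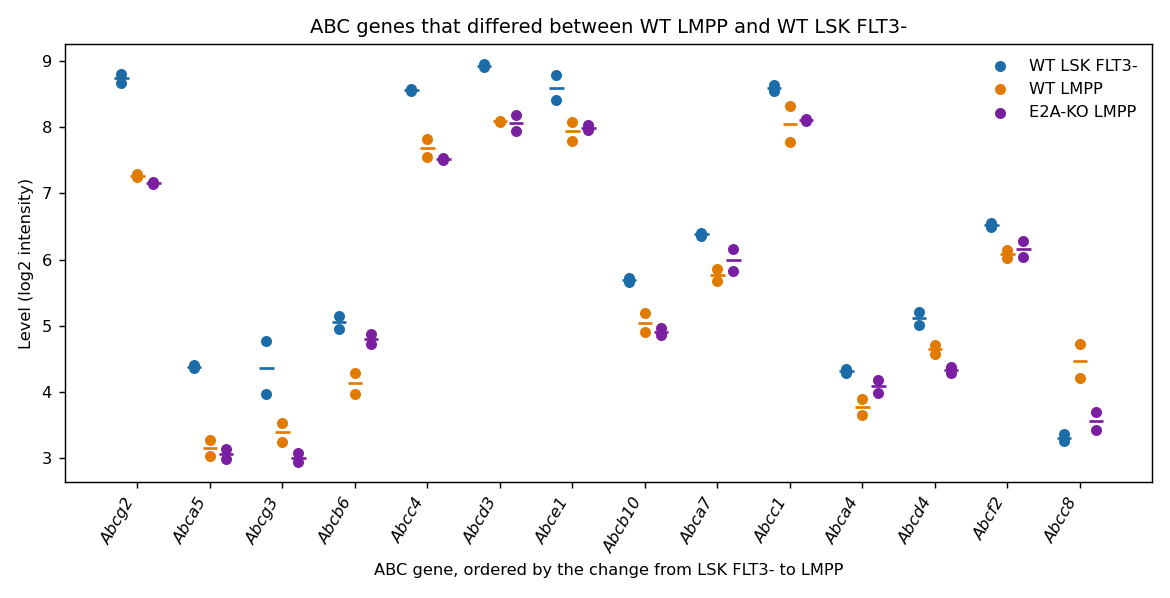
Level (log2 intensity) of the 14 ABC genes that passed the test between WT LMPP and WT LSK FLT3-, with a point for each array, a line at each group mean and genes ordered by their change. On the left Abcg2 lies at 8.68 and 8.81 on the LSK FLT3- arrays and between 7.15 and 7.29 on the 4 LMPP arrays, and on the right Abcc8 is highest on the 2 WT LMPP arrays.

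Abcg2 encodes the drug and dye pump of the side population. It read 8.68 and 8.81 (log2) in WT LSK FLT3-, 7.25 and 7.29 in WT LMPP, with 7.15 and 7.17 in E2A-KO LMPP. Both LSK FLT3- arrays stood above all 4 LMPP arrays. The change from WT LSK FLT3- to WT LMPP was -1.48 (SE 0.13, adjusted p = 0.000128), a 2.78-fold fall, and it passed under all 13 alternative settings, with changes between -1.58 and -1.14. Abcg3, a rodent relative of Abcg2 in the same subfamily, read 3.96 and 4.77 in WT LSK FLT3-, 3.53 and 3.24 in WT LMPP, with 3.07 and 2.93 in E2A-KO LMPP. All of these values are low, and the 2 LSK FLT3- arrays differ by more than either LMPP pair. Its fall of 0.98 (SE 0.24, adjusted p = 0.0145) did not pass without LSK FLT3- replicate 2 or without WT LMPP replicate 2, and was 0.53 with the mean of both probe sets. The values of Abcg2 and Abcg3 come from different probe sets, and cross-hybridization between these relatives was not tested.

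None of the sterol exporters of subfamily G passed in the main test. Abcg1, which hands cholesterol to lipoproteins, read 8.69 and 8.64 in WT LSK FLT3-, 9.04 and 8.93 in WT LMPP, with 8.37 and 8.61 in E2A-KO LMPP. Both WT LMPP arrays were above all other arrays, and the change of 0.32 (SE 0.14, adjusted p = 0.104) did not pass. It passed after quantile normalization of the arrays (0.63, adjusted p = 0.0182) and with a trend in the variance. A dimmer probe set of Abcg1 changed by -0.30 (adjusted p = 0.42, over all probe sets) and did not pass. The mean of both probe sets gave 0.01, so the direction for Abcg1 is not settled. Abcg4, Abcg5 and Abcg8 changed by 0.11 to 0.13 and did not pass.

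In subfamily A, 3 of 14 members fell and 11 did not pass (changes of -0.12 to 0.36), and 10 of the 14 were at or below the median level. Abca5, a lipid transporter of lysosomes and late endosomes, read 4.35 and 4.40 in WT LSK FLT3-, 3.02 and 3.26 in WT LMPP, with 2.98 and 3.13 in E2A-KO LMPP. The LSK FLT3- arrays were above the 4 LMPP arrays by more than 1 log2 unit, and the fall of 1.23 (SE 0.14, adjusted p = 0.00051) passed under all 12 settings that kept the gene. It was smaller, at -0.51, with the mean of both probe sets, since the second, dimmer probe set of Abca5 changed by 0.21 and did not pass. Its LMPP values are near the lower quartile of the arrays. None of its chromosome 11 neighbours passed: Abca6, Abca8a, Abca8b and Abca9 changed by -0.08, 0.02, 0.18 and 0.32, all at levels of 2.46 to 3.56.

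Abca7, a lipid transporter known from phagocytes and from brain, fell by 0.61 (SE 0.15, adjusted p = 0.0151). It read 6.40 and 6.36 in WT LSK FLT3- and 5.86 and 5.67 in WT LMPP. Abca4, the retinoid transporter of photoreceptors, fell by 0.54 (adjusted p = 0.02) between low levels, from 4.29 and 4.35 to 3.65 and 3.90. Each of these lost its call when either LSK FLT3- array was left out, Abca7 also without WT LMPP replicate 2 and after quantile normalization, and Abca4 also without WT LMPP replicate 1. Abca1, the exporter that loads cholesterol onto apolipoproteins, read 7.58 and 7.71 in WT LSK FLT3-, 7.71 and 7.89 in WT LMPP, with 7.04 and 7.31 in E2A-KO LMPP. Its change of 0.15 (adjusted p = 0.458) did not pass, except after quantile normalization (0.52, adjusted p = 0.0386).

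In subfamily B, 2 of 8 members fell, Abcb6 and Abcb10, both linked to porphyrins or heme. The other 6 did not pass (-0.10 to 0.18), among them the multidrug pumps and Abcb8, another mitochondrial member (0.15). Abcb6, a porphyrin transporter, read 5.15 and 4.95 in WT LSK FLT3-, 3.97 and 4.28 in WT LMPP, with 4.72 and 4.87 in E2A-KO LMPP. The WT LMPP arrays were the lowest, and the fall of 0.93 (SE 0.15, adjusted p = 0.00268) passed under all 13 settings. Abcb10, an inner mitochondrial membrane transporter needed for heme synthesis in red cell precursors, read 5.66 and 5.72, then 5.18 and 4.90, with 4.85 and 4.96 in E2A-KO LMPP. Its fall of 0.65 (SE 0.14, adjusted p = 0.00917) did not pass without either LSK FLT3- array, after quantile normalization, or with the mean of its 3 probe sets.

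Most, but not all, erythroid and mast cell markers moved in the same direction as Abcb6 and Abcb10. Of 6 erythroid markers 5 fell and 1, Hba-a1, rose, and the list's mean level was 6.71 to 6.79 on the LSK FLT3- arrays, 4.74 to 4.97 on the WT LMPP arrays and 5.13 to 5.27 on the E2A-KO LMPP arrays. Of 5 mast cell markers 3 fell and 2 did not pass. Their list mean went from 5.03 to 5.05 on the LSK FLT3- arrays to 3.50 to 3.53 in WT LMPP. Hba-a1, a hemoglobin chain of late red cells, was at 3.59 or lower in each group mean. The gate (LIN-, SCA1+, KIT+) is meant to leave out cells that carry lineage markers. Whether such cells contribute to the falls of Abcb6 and Abcb10 was not tested, and fewer cells of a type cannot be told apart from less RNA per cell in sorted bulk samples.

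Abcb1a and Abcb1b together encode the mouse P-glycoproteins, drug pumps known from resistant tumor cells. Abcb1a read 6.73 and 6.80 in WT LSK FLT3-, 6.84 and 6.91 in WT LMPP, with 6.93 and 6.91 in E2A-KO LMPP, and its change of 0.11 (adjusted p = 0.512) did not pass. Another probe set of Abcb1a gave -0.69 (adjusted p = 0.0207, over all probe sets), and quantile normalization gave 0.51 with a call on the chosen probe set (adjusted p = 0.0219), so the direction for Abcb1a is not settled. Abcb1b read 4.96 and 5.07 in WT LSK FLT3-, 5.45 and 4.96 in WT LMPP, with 5.29 and 5.38 in E2A-KO LMPP. Its change of 0.18 (adjusted p = 0.431) was smaller than the gap between the 2 WT LMPP arrays. Abcb4, their neighbour and the phosphatidylcholine transporter of bile, changed by -0.10 and did not pass.

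In subfamily C, 2 of 10 members fell, 1 rose and 7 did not pass (-0.28 to 0.70). Abcc4, an exporter of cyclic nucleotides and prostaglandins that is also found in platelet granules, read 8.54 and 8.59 in WT LSK FLT3-, 7.55 and 7.83 in WT LMPP, with 7.54 and 7.51 in E2A-KO LMPP. The fall of 0.87 (SE 0.14, adjusted p = 0.00223) passed under all 13 settings, with its smallest size after quantile normalization (-0.55). Megakaryocyte markers fell in 4 of 5 cases over the same step, from a list mean of 5.69 to 5.74 to one of 4.30 to 4.41, and their part in the fall of Abcc4 was not tested. Abcc1, which exports glutathione conjugates and leukotriene C4, read 8.64 and 8.54 in WT LSK FLT3-, 7.78 and 8.32 in WT LMPP, with 8.10 and 8.13 in E2A-KO LMPP. Its fall of 0.55 (SE 0.18, adjusted p = 0.0437) was near the gap between the WT LMPP arrays, and it did not pass after quantile normalization (-0.24), on the 4 arrays compared (adjusted p = 0.0567), without either LSK FLT3- array or without WT LMPP replicate 1 (-0.28).

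Abcc8 went against the other called members. It encodes the sulfonylurea receptor, a regulatory subunit of the ATP-sensitive potassium channel rather than a pump, known from pancreatic beta cells. The arrays read 3.37 and 3.25 in WT LSK FLT3-, 4.22 and 4.73 in WT LMPP, with 3.43 and 3.69 in E2A-KO LMPP. Both WT LMPP arrays were above the other 4, at a level below that of the median gene. The rise of 1.16 (SE 0.19, adjusted p = 0.00223) passed under all 12 settings that kept the gene, and was 0.50 with the mean of both probe sets, since a second, dimmer one of Abcc8 did not pass (-0.16). The lymphoid-primed, neutrophil and macrophage list means were also highest in WT LMPP (8.82 to 9.06, 8.06 to 8.11 and 6.60 to 6.90). In E2A-KO LMPP the lymphoid-primed mean (6.70 to 6.86) was above that of LSK FLT3- (6.49 to 6.65). The neutrophil mean there (5.64 to 5.75) was below that of LSK FLT3- (7.13 to 7.16). The part of such cells in the values of Abcc8 was not tested. Abcc12 had the next largest positive change, 0.70 (adjusted p = 0.0847), with WT LMPP arrays at 4.53 and 3.82, and did not pass. It passed with the mean of both probe sets (0.58, adjusted p = 0.022), on the 4 arrays compared (0.044), with a trend in the variance (0.0453) and without WT LMPP replicate 2 (1.06, 0.0275). It is named for the size of its change, a choice made after its values were seen.

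In subfamily D 2 of 3 members fell, in E its 1 member and in F 1 of 3. Abcd3, a major protein of the peroxisome membrane, read 8.91 and 8.96 in WT LSK FLT3-, 8.10 and 8.08 in WT LMPP, with 7.94 and 8.19 in E2A-KO LMPP. Both LSK FLT3- arrays were above all 4 LMPP arrays, and the fall of 0.84 (SE 0.14, adjusted p = 0.00237) was lost only with the mean of both probe sets (adjusted p = 0.112), of which the other is dim. Abcd4, which helps move vitamin B12 out of lysosomes, fell by 0.47 (adjusted p = 0.029) from 5.01 and 5.21 to 4.57 and 4.71. Its call was lost under 6 of 13 settings. Abcd2, the remaining member, is a fatty acid transporter of peroxisomes and was low on all arrays (2.98 to 3.49).

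Abce1, which splits ribosomes into subunits after termination, read 8.41 and 8.78 in WT LSK FLT3-, 7.80 and 8.08 in WT LMPP, with 8.03 and 7.96 in E2A-KO LMPP. Its fall of 0.66 (SE 0.17, adjusted p = 0.0167) was lost without LSK FLT3- replicate 2, without WT LMPP replicate 1 and after quantile normalization. Abcf2 fell by 0.43 (adjusted p = 0.0409), from 6.56 and 6.49 to 6.03 and 6.15, and this call was lost under 7 of 13 settings. Abcf1, which promotes translation initiation, and Abcf3 changed by -0.25 and -0.21 in their brightest probe sets and did not pass. Other probe sets of the same genes fell: -1.02 (adjusted p = 0.0013) and -0.59 (0.0165) for Abcf1, and -1.06 (0.0238) and -0.73 (0.00583) for Abcf3.

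**Figure D2:**
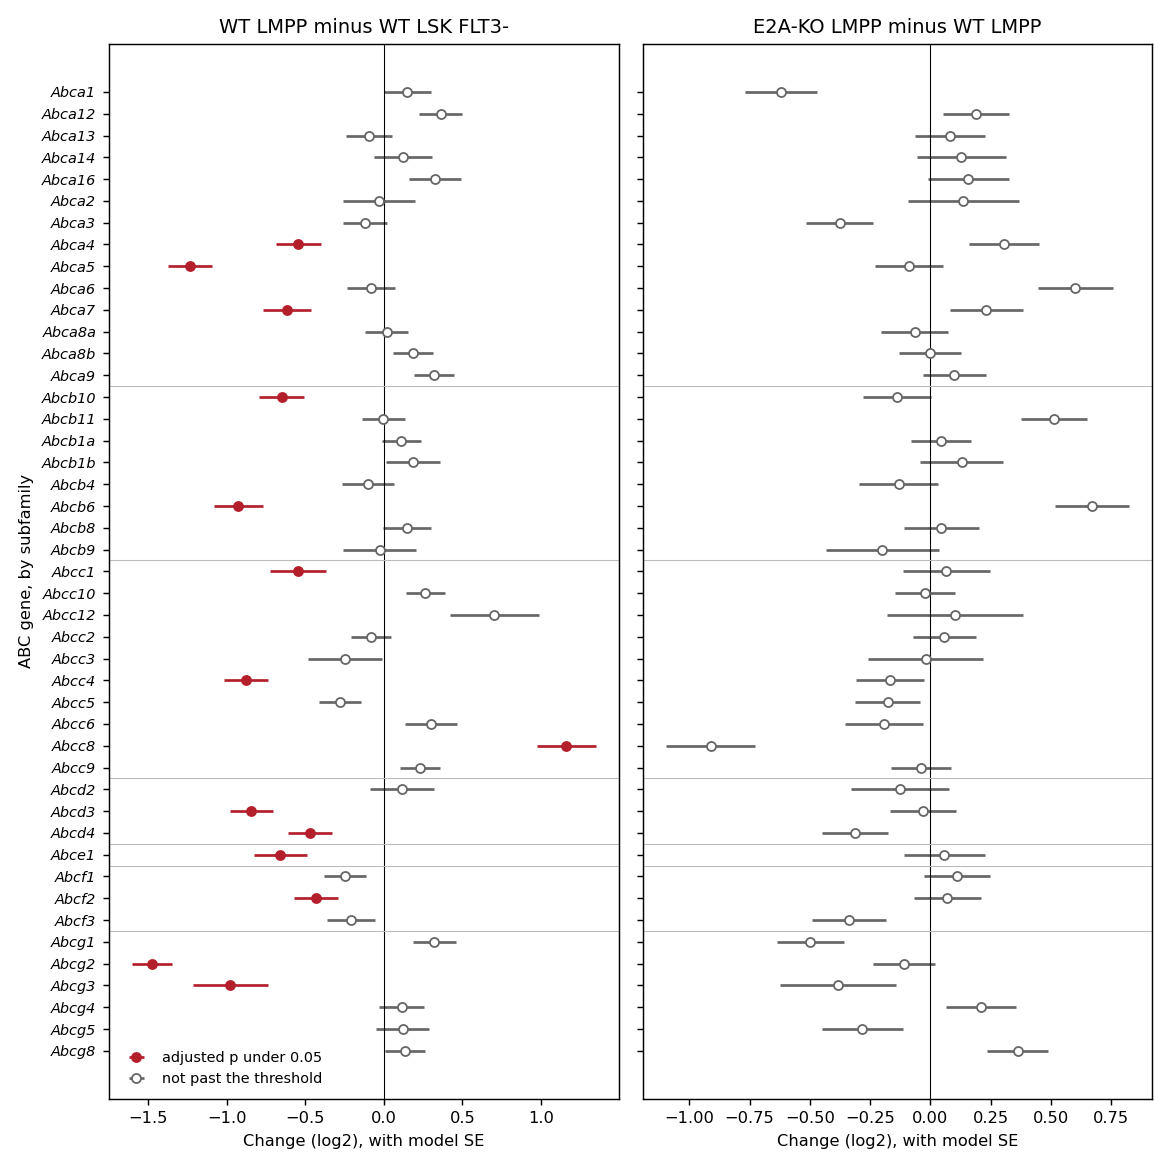
Change (log2) of each of the 45 ABC genes from WT LSK FLT3- to WT LMPP on the left and from WT LMPP to E2A-KO LMPP on the right, with the model's SE as bars and lines between subfamilies. Filled red points passed at an adjusted p under 0.05: 14 on the left, of which Abcc8 alone is above 0, and 0 on the right.

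The members had 92 probe sets, and 26 members had more than 1. Tested over all 45101 probe sets, 17 member probe sets fell and 1 rose, against 15.5% and 8.09% of all probe sets. Of the 17, 12 belonged to members that fell as genes and 5 to Abcb1a, Abcf1 and Abcf3. Abcc1 and Abcf2, which fell as genes, had no probe set called in this test (lowest adjusted p 0.0531 and 0.0604). No member had probe sets called in opposite directions in this comparison.

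The change depended on the level of a gene across the whole array. Genes above the median level had a median change of -0.34 and those at or below it 0.18, and the members' medians were -0.23 and 0.12. After quantile normalization these medians were -0.03 and 0.05 for all genes and 0.13 and -0.03 for the members. Then 4 members rose (Abcc8, Abca1, Abcb1a and Abcg1) and 7 fell (Abcg2, Abca5, Abcg3, Abcb6, Abca4, Abcc4 and Abcd3). The share of rises among called members was 36.4% after that normalization and 7.14% on the deposited values, and among all genes called it was 47.4% and 30.5%, or 17.8% after centring on array medians. Leaving out single arrays lowered the count of called members from 14 to 9 without WT LMPP replicate 1, 8 without LSK FLT3- replicate 1 and 6 without LSK FLT3- replicate 2. Each of these fits has a group of 1 array, assumed to vary like the other groups, and fewer residual degrees of freedom. Leaving out an array of the group not compared gives the same fit as the 4 arrays compared.

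**Figure D3:**
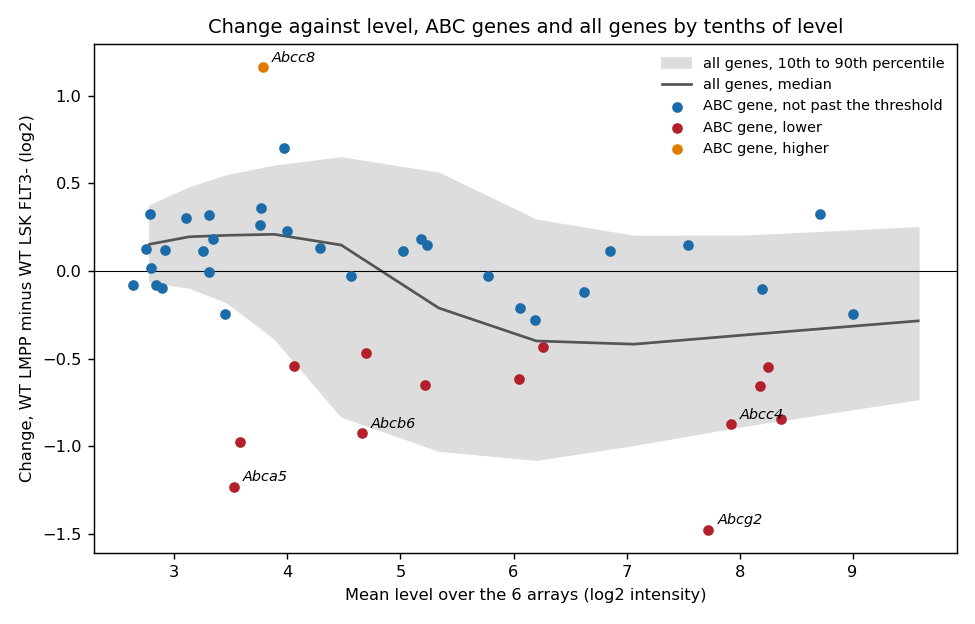
Change from WT LSK FLT3- to WT LMPP (log2) against the mean level over the 6 arrays, for the 45 ABC genes as points and for all genes, in 10 bins of level, as a median line with a band from the 10th to the 90th percentile. The median line lies above 0 at low levels and below 0 from the middle of the range on, and Abcg2 lies at -1.48.

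**Figure D4:**
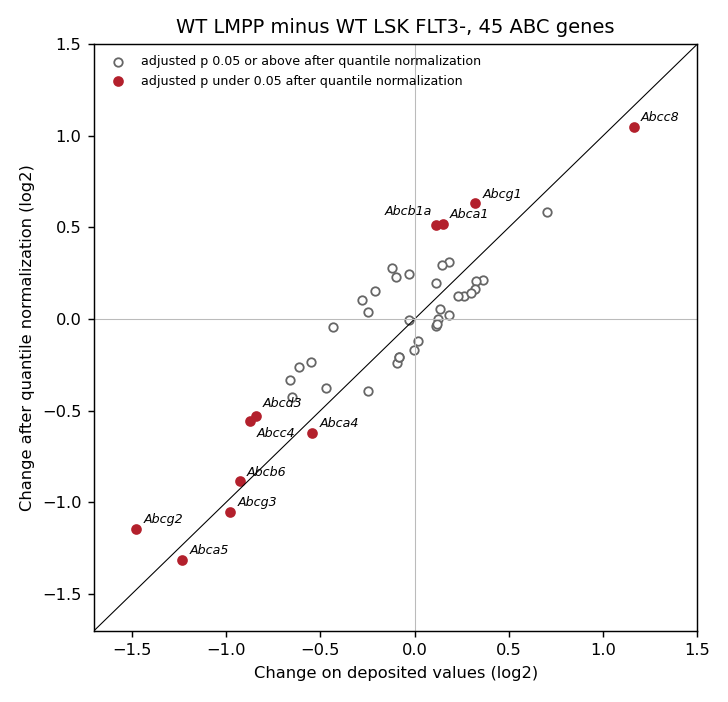
Change between WT LSK FLT3- and WT LMPP (log2) for each of the 45 ABC genes, on the deposited values (horizontal) and after quantile normalization of the 6 arrays (vertical), with the line of equality. Red points passed after normalization, 7 below 0 and 4 above, and Abcg2 moved from -1.48 to -1.14.

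E2A-KO against WT LMPP is the comparison named as the goal of the experiment. None of the 45 ABC genes passed in it (limma, Benjamini-Hochberg adjustment), and over all genes 0.379% were called higher and 0.995% lower. At an unadjusted p under 0.05 there were 9 members, 4 higher and 5 lower, against 5.89% and 8.76% of all genes. The members' median change was -0.0023, and that of all genes -0.02. Arrays did not overlap for 9 members that were higher and 12 that were lower in the knockout, against 18.8% and 22.8% of all genes, so these shares (20% and 26.7%) were close to those of other genes.

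Abcc8, shown above to be highest in WT LMPP, had the largest difference, -0.91 (SE 0.19, adjusted p = 0.0591). It passed without WT LMPP replicate 1 (-1.17, adjusted p = 0.0289), after centring on array medians (-0.94, 0.0486) and with a trend in the variance (0.0214), and the adjusted p over 12 alternatives ran from 0.0214 to 0.239. The difference was -0.42 with the mean of both probe sets. Abcb6, lowest in WT LMPP, was higher by 0.67 in the knockout (SE 0.15, adjusted p = 0.0837) and did not pass under any of 13 settings. These differences share the WT LMPP arrays with the comparison of fractions, so a value that is high or low on those arrays enters both with opposite sign.

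Abca1 and Abcg1 were lower in E2A-KO LMPP without passing. In subfamily G, 4 of 6 members had changes below 0 (median -0.20), while Abcg4 and Abcg8 had values above 0 (0.21 and 0.36). Abca1, with the array values given above, differed by -0.62 (SE 0.15, adjusted p = 0.0946) and Abcg1 by -0.50 (SE 0.14, adjusted p = 0.143). For both genes the E2A-KO LMPP arrays lay below the WT LMPP arrays on the chosen probe set. With the mean of all probe sets the differences were smaller, -0.25 for Abca1 and -0.31 for Abcg1. The other probe sets gave -0.32 and 0.20 for Abca1 and -0.13 for Abcg1, and did not pass. With a trend in the variance both genes passed on the chosen probe set (adjusted p = 0.0215 and 0.0227). So did Abca6, at 0.60 (0.0434) between levels of 2.46 and 3.34. Apart from these 5, the members at an unadjusted p under 0.05 were Abca3, which loads lipid into lamellar bodies of the lung (-0.38), Abcd4 (-0.31), the bile salt exporter Abcb11 (0.51) and the sterol exporter subunit Abcg8 (0.36), all named after their values were seen.

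The drug pumps differed little between the genotypes. Abcg2 differed by -0.11 (SE 0.13, adjusted p = 0.75), Abcb1a by 0.04 (SE 0.13, 0.909), Abcb1b by 0.13 (SE 0.17, 0.785) and Abcc1 by 0.07 (SE 0.18, 0.904). With SEs of this size, a missed threshold does not show equal levels. Over the same comparison 4 of 5 lymphoid-primed markers and 6 of 6 neutrophil markers fell, the latter to a list mean of 5.64 to 5.75. The lymphoid-primed marker that did not pass was Flt3 (-0.07), and both groups were sorted as FLT3hi. The macrophage markers Csf1r and Mpeg1 fell (-1.13 and -1.08), 2 of 6 in their list, while the erythroid marker Tfr2 (1.10) and the plasma cell marker Sdc1 (0.94) rose, each as the 1 call of its list. The part of these cells in the values of Abcc8, Abca1, Abcg1 and Abcb6 was not tested.

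E2A-KO LMPP against WT LSK FLT3- shares its LSK FLT3- arrays with the first comparison and its knockout arrays with the second, and so adds no independent samples. In it 12 members fell, 6 rose and 27 did not pass, against 26.5% lower and 11% higher over all genes. The 5 largest changes past the threshold were falls in Abcg2 (-1.58, SE 0.13, adjusted p = 8.71e-05), Abcg3 (-1.36), Abca5 (-1.32), Abcc4 (-1.04) and Abcd3 (-0.87). All 5 kept their calls after quantile normalization, and Abcd3 alone lost its call under a setting, with the mean of both probe sets (-0.13). That mean also brought Abca5 to -0.57 and Abcg3 to -0.73, and these genes were not tested without the dimmest 40% of genes. The second, dim probe set of Abcd3 was itself called higher in this comparison (0.61, adjusted p = 0.0411), as was 1 probe set of Abcc5 (0.62, 0.0407). The other 7 falls, of 0.46 to 0.79, were in Abcb10, Abcd4, Abce1, Abcf3, Abca3, Abca1 and Abcc5, and each lost its call under at least 1 setting. They are listed with their values known.

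The 6 rises were Abca12, Abca16, Abca6, Abca9, Abcb11 and Abcg8, with changes of 0.42 to 0.55, named after their values were seen because all 6 had means at or below the median level. They are 6 of 25 such members, against 15.3% of all genes at those levels. Genes at such levels had a median change of 0.19 in this comparison. After quantile normalization none of these 6 passed, and 8 members were called in all, 7 lower and, as the exception, Abcb1a higher (0.61, adjusted p = 0.0104). Without LSK FLT3- replicate 1 or 2, 8 members passed in each case.

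Genes that work with ABC transporters were followed in 6 lists with 113 measured members. Of them, 60 fell (53.1%) and 4 rose from WT LSK FLT3- to WT LMPP, against 23.7% lower and 10.4% higher over all genes. A total of 103 were above the median level, and 58 of those fell (56.3%, against 40.9% of all genes at such levels). The lists were chosen with earlier results of these data known, so no conclusion is drawn from these differences in shares. After quantile normalization 24 of the 113 fell and 8 rose. Under that setting 3496 of all 18194 genes were called, 47.4% of them higher.

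Cholesterol and LXR genes, which supply and sense the cargo of Abca1 and Abcg1, fell in 14 of 22 cases and rose in 0, with a median of -0.49. The share that fell was 23.7% over all genes and 40.9% over those above the median level. Apoe, an apolipoprotein that accepts cellular cholesterol, read 7.93 and 8.16 in WT LSK FLT3- and 4.68 and 4.25 in WT LMPP, a fall of 3.58 (SE 0.17, adjusted p = 6.68e-06). Insig1, a brake on sterol synthesis, and Sqle, squalene epoxidase, fell by 1.37 and 1.36. In E2A-KO LMPP the only call of this list was Npc1, which moves cholesterol out of lysosomes, and which read 6.63 and 6.14 in WT LMPP but 5.20 and 5.39 in E2A-KO LMPP (-1.09, SE 0.175, adjusted p = 0.0211). That call was lost without either E2A-KO LMPP array, without WT LMPP replicate 1 and on the 4 LMPP arrays alone.

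Heme and iron-sulfur cluster genes, the pathway of Abcb6 and Abcb10, fell in 8 of 21 cases and rose in 2, with a median of -0.40. Over all genes 23.7% fell, and 40.9% of those above the median level. The list was not split by level, so neither share is an exact match. Alad, an early enzyme of heme synthesis, fell by 1.35, the iron regulatory protein gene Aco1 by 1.31 and the cluster assembly gene Isca1 by 1.31. In E2A-KO LMPP 0 of the 21 passed. Peroxisome genes, the setting of Abcd3, fell in 13 of 21 cases and rose in 2, with a median of -0.54. Ehhadh, a beta-oxidation enzyme, fell by 1.33 and Pex3, a membrane assembly factor, by 1.11, the latter not after quantile normalization or without either LSK FLT3- array.

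Slc27a2, a very long chain fatty acid transporter and acyl-CoA synthetase, went the other way in the peroxisome list. It read 3.94 and 4.05 in WT LSK FLT3-, 5.55 and 5.93 in WT LMPP, with 3.89 and 4.29 in E2A-KO LMPP. It rose by 1.75 (SE 0.18, adjusted p = 0.000327) and fell by 1.65 in the knockout (SE 0.18, adjusted p = 0.00357), and each call passed under all 13 settings. As for Abcc8, both WT LMPP arrays were the highest, while here the E2A-KO LMPP and LSK FLT3- arrays overlapped.

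Glutathione and detoxification genes, which make the conjugates that Abcc1 exports, fell in 10 of 21 cases and rose in 0. Beside this stand falls in 23.7% of all genes and in 40.9% of those above the median level. The glutathione transferase genes Gsta4 and Gstm5 fell by 1.73 and 1.61, and the microsomal transferase gene Mgst1 by 1.2, the last not with the mean of its probe sets. Gclm, the regulatory subunit of glutamate-cysteine ligase, read 7.58 and 7.55 in WT LMPP but 8.32 and 8.50 in E2A-KO LMPP, a rise of 0.84 (SE 0.13, adjusted p = 0.0184) that did not pass without any 1 of the 4 LMPP arrays or on those 4 arrays alone (adjusted p 0.0586 to 0.106), with changes of 0.75 to 0.93.

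Peptide loading genes include Tap1 and Tap2, ABC proteins that the naming rule leaves out. They changed by -0.26 and -0.35 from WT LSK FLT3- to WT LMPP and did not pass, while 7 of 14 genes of the list fell, with H2-D1 (-0.98), H2-K1 (-0.79) and Psmb10 (-0.63) the largest. H2-K1 did not pass with the mean of its probe sets, and Psmb10 not after quantile normalization or without either LSK FLT3- array or WT LMPP replicate 2. Ribosome recycling and initiation genes, partners of Abce1 and the F subfamily, fell in 8 of 14 cases and rose in 0, led by Eif2b1 (-0.81), Eif2s2 (-0.65) and the release factor gene Gspt1 (-0.59), of which the last 2 did not pass without either LSK FLT3- array. In E2A-KO LMPP 0 genes of these 2 lists passed. Across the 6 lists 3 of 113 genes passed in that comparison, Npc1 and Slc27a2 lower and Gclm higher, against 0.995% of all genes lower and 0.379% higher.

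**Figure D5:**
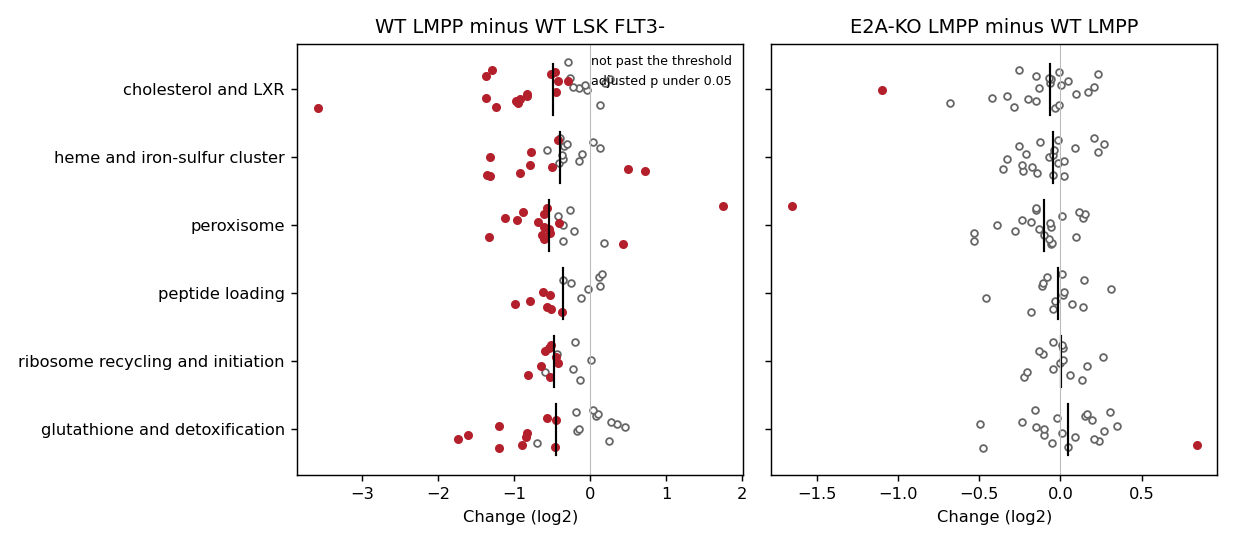
Change (log2) of each measured gene of the 6 lists of genes that work with ABC transporters, from WT LSK FLT3- to WT LMPP on the left and from WT LMPP to E2A-KO LMPP on the right, with a bar at each list's median. On the left all 6 medians are below 0 (-0.54 to -0.36), and on the right only 3 points passed.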

How the data were processed

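Sorted mouse bone marrow cells were measured on 6 Affymetrix arrays. Per the submitters' processing notes the values were made with RMA, with no version given, and the authors deposited them as intensity values on a linear scale (4.23 to 25594). They were taken to log2 before any test. Per the labels' protocols RNA was amplified in 2 rounds from the 3' end, so differences in transcript ends may enter the values. No source used here says if RMA was run on the 6 arrays together.

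Of 45101 probe sets, 34958 had 1 gene symbol, 932 several and 9211 none, and only the first kind names genes. Each of 18194 genes was represented by its brightest probe set. limma 3.58.1 in R 4.3.3 fitted 1 mean per group on all 6 arrays, with 3 residual and 5.8 prior degrees of freedom, with two-sided tests, Benjamini-Hochberg adjustment over all genes and a threshold of 0.05. The fit was also run on simulated data with 200 changed genes. Those data held no shift with level between the fractions, so that run does not bear on the calls reported here. SEs are from the model, and precision is limited by the number of arrays.

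By rule the named members were those past the threshold, at most 15 falls in the comparison of fractions and 5 in that of E2A-KO LMPP with WT LSK FLT3-. Always named were Abcg2, Abcb1a, Abcb1b, Abca1, Abcg1 and Abcc1, and up to 3 called genes of each list. The text also names members beyond this rule, with their values known, among them the remaining falls and the rises of E2A-KO LMPP against WT LSK FLT3-. The members and lists were chosen with earlier results of these data known. Alternatives were a replicate block, only the 4 arrays compared, no dim genes (the lowest 40%), the mean of a gene's probe sets, each probe set on its own, quantile normalization, median centring, a variance trend with robust estimation, and leaving out each array. Figures were drawn with matplotlib 3.10.9.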

Additional observations from a re-analysis of the deposited data

How the results depend on the processing

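Among ABC genes, Abcg2, Abca5, Abcb6, Abcc4 and Abcc8 kept their calls from WT LSK FLT3- to WT LMPP under every setting that kept the gene. Leaving out 1 array gave 6 to 14 called members in that comparison, 0 to 1 in E2A-KO against WT LMPP and 8 to 20 in E2A-KO LMPP against WT LSK FLT3-. For all genes these ranges were 2370 to 6410, 89 to 164 and 2944 to 7515, and for the partner lists 27 to 63, 1 to 2 and 37 to 69.

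Quantile normalization gave 3496 genes in place of 6198, and 32 partner genes in place of 64, in the comparison of fractions. In E2A-KO LMPP against WT LSK FLT3- it gave 8 members in place of 18, 3617 genes in place of 6822 and 35 partner genes in place of 65, with 12.5% of called members higher in place of 33.3% (6.25% after median centring). In E2A-KO against WT LMPP, 1 member passed after median centring and 4 with a variance trend and robust estimation. There 548 of all genes passed with the variance trend, in place of 250, and 89 genes and 1 partner gene on the 4 LMPP arrays alone. That fit has fewer residual degrees of freedom; the cause of the other shifts was not tested.

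Some uncalled changes turned sign. With the mean of both probe sets Abcb1a changed by -0.29 from WT LSK FLT3- to WT LMPP and by -0.28 to E2A-KO LMPP, and Abcc1 by -0.024 in E2A-KO against WT LMPP. Quantile normalization turned Abcg1 to 0.18 in E2A-KO LMPP against WT LSK FLT3-. Leaving out 1 array turned Abcb1b (-0.0605 to 0.43 across fractions, -0.11 to 0.37 between genotypes) and Abcc1 (-0.20 to 0.34 between genotypes).

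No label says that equal replicate numbers mark a pairing, and differences between replicates 1 and 2 correlated between groups at only -0.04 to 0.02 (across genes). With the replicate number as a block 13, 0 and 17 members passed in the 3 comparisons.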
